A study of Mus musculus with 48 samples.

Results

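The transcripts described here are those of 10 skeletal muscle contractile genes, measured in subcutaneous white fat, a tissue that is not made of muscle. The genes were chosen by name, with their symbols looked up in the deposited count table, and all 10 were found among its 54532 genes. They are Acta1, Mylpf, Tnnt3, Tnni2, Myh1, Myh2 and Myh4, which build the contractile filaments, Atp2a1 and Casq1, which handle calcium, and Ckm, which supplies energy. All 10 passed the filter on low counts and were among the 19977 genes tested.

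The study asked how feeding confined to a pair of nightly windows (TAN) changes fat compared with food at all times (ad-lib), and collected inguinal fat (iWAT, also called sWAT) at 6 clock times. There were 4 libraries for each of the 2 diets at 8 AM, 12 PM, 4 PM, 8 PM, 12 AM and 4 AM, 48 bulk RNA-seq libraries in all, from C57BL/6 mice of 8 months, which the study describes as C57BL/6J males fed regular chow. The labels name no transgene or deletion in any group. Nothing in the labels says whether libraries that share a number are related, or that each came from its own animal, so p-values measure the spread between these samples. The total was between 15636378 and 29913310 counts per library, and 0 of 1128 pairs of libraries held identical counts. The design text names stromal vascular cells as the starting material, whereas the methods name frozen fat. White adipocyte genes were present in every library, where Adipoq, the adipocyte hormone adiponectin, had at least 13751 counts. The clock times used here are those of the labels. A table of the study with the same libraries names all 48 of them with a time 12 hours away, so the hour of a group is uncertain, whereas libraries that share a time do so in both sources.

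Skeletal muscle contracts when myosin heavy chains pull on actin filaments. Calcium released from the sarcoplasmic reticulum starts this by binding the troponin complex, and a calcium pump then takes it back. Adult fibres are typed by their myosin. Myh7 marks slow fibres, Myh2 the fast oxidative type 2A, Myh1 type 2X, and Myh4 the fastest, glycolytic type 2B, which is common in mouse limb and body wall muscle. The inguinal fat pad lies between skin and the muscles of the abdominal wall and thigh, and in the intact animal it holds the inguinal lymph node. In whole tissue, fewer cells of a type and less RNA in each cell cannot be told apart.

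On the GRCm38 coordinates of the deposited table, the fast myosins stand in a row on chromosome 11, with Myh2 at 67171027 to 67197517, Myh1 at 67200052 to 67224575 and Myh4 at 67238029 to 67260446, all on the plus strand. Tnni2 (chromosome 7, 142441808 to 142444410) and Tnnt3 (chromosome 7, 142498836 to 142516009) are neighbours as well. Ckm, Mylpf and Atp2a1 also lie on chromosome 7, Acta1 on chromosome 8 (123891769 to 123894751, minus strand) and Casq1 on chromosome 1. RefSeq promoter entries on GRCm38.p6 existed for 8 members, those other than Tnni2 and Tnnt3, and the 250 bases before each start were searched on both strands for the E-box CANNTG, which myogenic bHLH factors bind, the MEF2 site, the CArG box, which serum response factor binds, and the TATA box TATAAA. An E-box was found in 6 of the 8 windows and in 66.2% of all 32851 promoters. A MEF2 site was in 2 of 8 against 2.92% of all, a CArG box in 2 of 8 against 1.47%, and TATAAA in 3 of 8 against 12.4%. The 3 myosin promoters are shown since these neighbouring genes of 1 family differed in level, and that of Acta1 since it was the one member with counts in every library. They are chr8:123894776-123895025 (minus strand), chr11:67170777-67171026, chr11:67199852-67200051 and chr11:67237562-67237811 (plus strand), with the Myh1 window ended where its first annotated exon begins, and capitals mark E-box, MEF2 and CArG matches.
Acta1: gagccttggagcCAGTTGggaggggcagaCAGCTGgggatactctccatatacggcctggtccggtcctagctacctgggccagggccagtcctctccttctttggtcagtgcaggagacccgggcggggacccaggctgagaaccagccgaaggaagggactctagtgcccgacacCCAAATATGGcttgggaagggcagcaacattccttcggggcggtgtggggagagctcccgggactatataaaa
Myh2: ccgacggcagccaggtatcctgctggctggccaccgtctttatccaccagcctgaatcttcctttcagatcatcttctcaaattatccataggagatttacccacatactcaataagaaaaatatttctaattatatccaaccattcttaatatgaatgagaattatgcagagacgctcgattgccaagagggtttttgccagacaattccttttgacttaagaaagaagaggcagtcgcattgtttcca
Myh1: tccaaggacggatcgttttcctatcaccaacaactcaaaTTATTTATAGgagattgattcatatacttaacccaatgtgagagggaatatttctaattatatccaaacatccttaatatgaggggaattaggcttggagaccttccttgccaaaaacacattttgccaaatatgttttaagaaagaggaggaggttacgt
Myh4: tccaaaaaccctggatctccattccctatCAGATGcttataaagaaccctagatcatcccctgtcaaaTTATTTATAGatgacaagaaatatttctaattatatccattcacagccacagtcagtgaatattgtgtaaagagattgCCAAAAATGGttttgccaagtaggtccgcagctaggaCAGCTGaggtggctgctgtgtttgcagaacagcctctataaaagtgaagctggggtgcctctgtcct
Myh1 and Myh4 held a MEF2 match in the same 10 letters, with its first base 211 and 182 bases before the start, and in both a TATAAA match on the other strand lay inside it. The E-box and the CArG box were absent from the Myh1 and Myh2 windows and present in Myh4, and Myh2 held none of the 4 motifs in this window. All 3 myosin windows shared a run of 20 bases, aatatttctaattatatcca. These matches describe letters only and were not tested for binding.

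The muscle transcripts were concentrated in a few libraries. Their summed level had a median of 25.4 CPM (counts scaled to library size with TMM factors) over the 48 libraries, with a lowest value of 5.30 and a highest of 6735 CPM. The ad-lib 4 AM replicate 3 library alone held 36.5% of all counts of the 10 genes, and the 3 highest libraries (ad-lib 4 AM replicate 3, ad-lib 12 PM replicate 3 and TAN 12 PM replicate 1, at 6735, 2790 and 1630 CPM) held 62.4%. The 10 highest held 90.0%, 5 of them ad-lib and 5 TAN. Of these 10, 7 carried replicate number 3, and a replicate 3 library was the highest in 7 of the 12 groups. What the number marks is not stated. A fit with the number as a block is given with the tests over time.

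**Figure D1:**
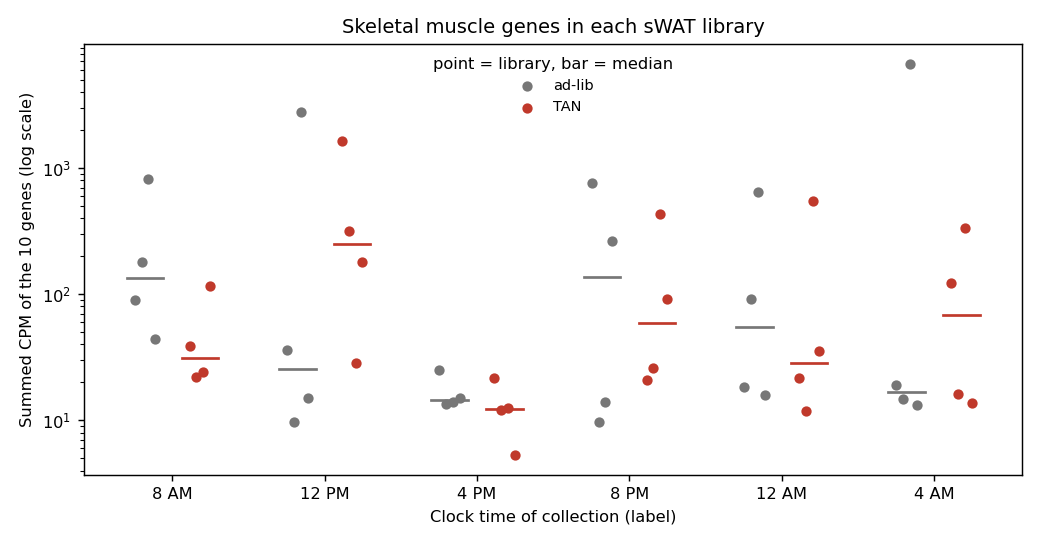
Summed CPM of the 10 genes (log axis) in each of the 48 libraries, by clock time and diet, with a point for each library and a bar at the median of 4. In every group except both 4 PM groups, at least 1 library lies above 100 CPM, and all 8 libraries of 4 PM lie between 5.30 and 24.9 CPM.

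Ckm, the muscle creatine kinase, which regenerates ATP in fibres, had a count of 0 in 19 of the 48 libraries and 14473 in the highest. At 8 AM its counts in replicates 1 to 4 were 13, 275, 3487 and 0 in ad-lib and 0, 0, 0 and 132 in TAN libraries. At 12 PM they were 0, 0, 6651 and 16 in ad-lib and 4705, 618, 29 and 578 in TAN libraries. One ad-lib library and 3 TAN libraries were therefore high at 12 PM, and the diets overlapped at both times. At 4 PM the ad-lib counts were 0, 0, 10 and 0 and the TAN counts 0, 3, 0 and 0. At 8 PM they were 2448, 2, 0 and 789 in ad-lib and 0, 0, 749 and 103 in TAN. Both diets thus had a pair of high and a pair of low libraries at 8 PM and no high library at 4 PM. At 12 AM the counts were 10, 156, 2231 and 9 in ad-lib and 0, 0, 1041 and 32 in TAN. At 4 AM they were 0, 4, 14473 and 8 in ad-lib and 256, 0, 721 and 28 in TAN. At 100 counts or more, a limit set after the values were seen, Ckm was present in 8 of 24 ad-lib and 9 of 24 TAN libraries, and at 10 counts or more in 12 of 24 of each. A count of 0 allows up to 3 counts, for counting error only, so that a low level cannot be told from absence at this depth.

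Counted over both diets, 3 of 8 libraries had at least 100 Ckm counts at 8 AM, 4 at 12 PM, 0 at 4 PM, 4 at 8 PM, 3 at 12 AM and 3 at 4 AM. At every time other than 4 PM, both diets therefore had libraries above and below that limit.

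Acta1, the skeletal alpha-actin of the thin filament, was the highest member per length, with a mean of 78.4 and a median of 12.3 CPM per kb over 48 libraries. Its counts at 4 AM were 230, 204, 41273 and 70 in ad-lib and 998, 186, 1988 and 106 in TAN libraries. One ad-lib library stood far above the rest, and its 3 fellow replicates lay within or below the TAN range. At 4 PM, Acta1 had 299, 152, 184 and 264 counts in ad-lib and 345, 158, 179 and 49 in TAN libraries, so that the groups overlapped at a low level. Unlike Ckm, Acta1 never reached 0. In the 19 libraries without a Ckm count it had 49 to 778 counts (median 230). Of the 50-base stretches of its transcripts, 1.83% also occur in transcripts of Actb, the cytoplasmic beta-actin, and none of its exon bases overlap another annotated gene.

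Mylpf, the regulatory light chain of fast myosin, came next per length, with a mean of 33.6 and a median of 2.86 CPM per kb. In the libraries without a Ckm count it had 0 to 149 counts (median 38) and was at 0 in 1 of 19. Tnni2, the inhibitory subunit of fast troponin, had a mean of 22.9 and a median of 1.75 CPM per kb. Its counts at 8 PM were 2008, 43, 68 and 666 in ad-lib and 127, 415, 1145 and 140 in TAN libraries. The 415 counts of TAN 8 PM replicate 2 stood beside 0 counts of Ckm, Tnnt3 and Myh4. That library had the highest summed level of 10 lymphocyte markers of all 48, 2886 CPM, and the lowest of 8 white adipocyte markers, 5040 CPM. Whether these cells contributed Tnni2 was not tested.

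Tnnt3, the fast troponin subunit that anchors the complex to tropomyosin, had a mean of 20.5 and a median of 0.519 CPM per kb. Atp2a1, the calcium pump SERCA1 of fast fibres, had a mean of 11.4 and a median of 0.344 CPM per kb. Casq1, the protein that stores calcium in the reticulum of fast fibres, had a mean of 5.47 and a median of 0.351 CPM per kb. Ckm had a mean of 13.3 and a median of 0.134, and Myh4 a mean of 5.88 and a median of 0.113 CPM per kb. Means were far above medians for all 5, and the highest library was the same, ad-lib 4 AM replicate 3, for each of the 10 members, where it held from 29.1% (Myh2) to 50.1% (Casq1) of a gene's counts. The SD over the 48 libraries exceeded the mean for every member (220 around the mean of 78.4 CPM per kb for Acta1), so the order of the means rests on few libraries. Library by library, Acta1 was above Mylpf in 44 of 48, Mylpf above Tnni2 in 41, Tnni2 above Tnnt3 in 35, Atp2a1 above Myh4 in 36 and Casq1 above Myh1 in 37 of 48. Ckm and Atp2a1 could not be ordered (20 libraries one way and 21 the other), nor could Myh4 and Casq1 (17 and 23). Atp2a1 shares 21.9% of its exon bases with Rabep2 and Ckm 15.5% with A930016O22Rik, both on the opposite strand. The strandedness of the counts is not stated, so that reads of these stretches cannot be assigned to 1 gene.

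**Figure D2:**
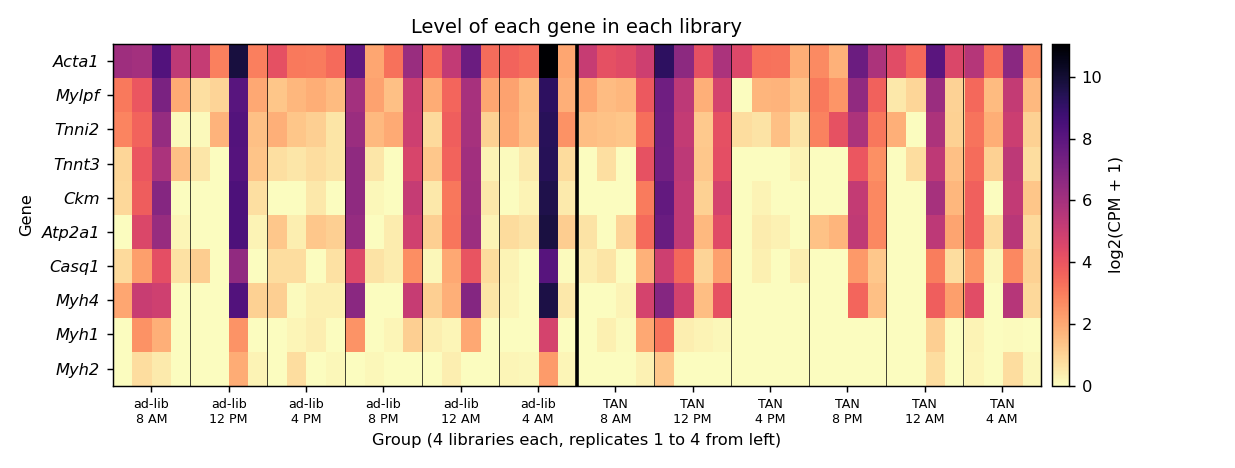
Level of each gene, as log2(CPM + 1), in each library, with the 6 ad-lib groups to the left and the 6 TAN groups to the right of the thick line. Dark columns are single libraries in which most genes are high together, and Acta1 keeps a visible level in the pale columns, where Ckm, Myh1 and Myh2 are near 0.

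Among the adult myosins, Myh4 of type 2B fibres prevailed in the libraries with enough counts to give a share. In the 15 libraries with at least 100 counts of Myh1, Myh2, Myh4 and Myh7 together, Myh4 made up 86.1% to 100% of their length-corrected level, with a median of 96.9%. Myh4 alone had at least 100 counts in 15 libraries, Myh1 in 4 and Myh2 in 0, and Myh7 had at most 31. The limit therefore chose libraries with Myh4. Below it, shares went both ways: TAN 8 PM replicate 2 had 31 counts, all Myh7, and ad-lib 8 AM replicate 1 had 48, all Myh4. Myh1 made up 0% to 12.0% (median 2.82%), Myh2 0% to 4.23% (median 0.610%) and slow Myh7 at most 0.407%. In the highest library, ad-lib 4 AM replicate 3, the counts were 15398 for Myh4, 473 for Myh1, 76 for Myh2 and 0 for Myh7. Myh1 was most prominent in ad-lib 8 AM replicate 2, with 100 counts and 12.0%, and in TAN 8 AM replicate 4, with 55 counts and 10.1%. The median share of Myh4 was 96.8% in 7 ad-lib and 98.5% in 8 TAN libraries, with ranges of 86.1% to 97.8% and 87.8% to 100% that overlapped. The myosins resemble each other in sequence. Of the 50-base stretches of Myh1 transcripts, 18.7% also occur in Myh2, and of those of Myh4, 10.6% occur in Myh1, so that the low Myh1 and Myh2 values depend on how shared reads were counted.

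Other fast-fibre genes also had their highest counts in ad-lib 4 AM replicate 3. Of 7 fast sarcomere genes outside the list, 6 passed the filter. The calcium buffer Pvalb, abundant in type 2B fibres, ran from 0 to 18998 counts, the fast light chain Myl1 from 180 to 18533, the fast actinin Actn3 from 0 to 7678, the Z-disc protein Myoz1 from 0 to 3131 and the myosin-binding protein Mybpc2 from 0 to 3121. The exception was Tnnc2, the calcium sensor of fast troponin, which had at most 3 counts and was at 0 in 46 of 48 libraries, also in the highest muscle library. Its exons overlap those of Ube2c on the opposite strand, and the reason for its near absence was not tested. Genes of slow fibres had few counts. Myl2 had at most 34 counts, Myh7 31, Tnni1 71, Tnnt1 73 and Tnnc1 75, although Mybpc1, a myosin-binding protein of slow fibres that fast muscle also expresses, reached 1480 counts in ad-lib 4 AM replicate 3. Tpm3 and Atp2a2, which most cells use, had at least 1978 and 1255 counts in every library.

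Embryonic Myh3 and perinatal Myh8 had at most 8 and 6 counts, against up to 15398 of Myh4. Among 8 myogenic regulators, Myf5 was at 0 in all 48 libraries, Pax7, the satellite cell factor, had at most 6 counts, Myog 19 and Myod1 26. Myf6, the regulator found in mature fibres, reached 115 counts in ad-lib 4 AM replicate 3. Mef2c, a factor that other cell types also use, had 363 to 4234 counts. Of 12 excitation-contraction coupling genes, all of which passed the filter, Srl and the junctional protein Jph1 were the highest per length, at means of 2.18 and 1.05 CPM per kb. Sln, a small inhibitor of the calcium pump, was at 0 in 43 of 48 libraries and had its highest count, 286, in ad-lib 8 AM replicate 3. That library also held 604 counts of Mb, the oxygen-binding myoglobin, beside 634 in ad-lib 4 AM replicate 3 (31.9% of Mb exon bases overlap genes on the opposite strand). The TMM-scaled totals of these libraries were 31590031 and 19206933, so the raw counts are not on the same scale. The summed level of the 10 members was 820 CPM in the former and 6735 CPM in the latter. Ad-lib 4 AM replicate 3 had 0 counts of Sln.

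The 10 members moved together over the libraries. Pearson's r of log2 CPM between pairs of members was 0.56 to 0.96 over the 48 libraries (45 pairs, median 0.83), with a median of 0.89 within ad-lib and 0.77 within TAN libraries. Libraries share their depth and scaling over all pairs, and the value is given as a description. Each member's r with the mean of the 10 was highest for Ckm (0.97) and lowest for Myh2 (0.67), the member with the fewest counts, 261 in all. That mean includes the member itself, which raises its r, and this does not apply to genes outside the list. The 10 genes outside the list with profiles most like that mean were Myoz1 (r = 0.97), Ano5, Actn3 (both 0.96), Myot, Xirp2 and Pvalb (each 0.96), Trdn, Tcap (both 0.95), Cacna1s and Ckmt2 (both 0.94). Of these, 9 were on the lists of muscle genes drawn up here, and Ano5, a membrane repair protein of muscle, was the other. On principal components of the 1000 most variable genes, 9 of which were members, the second component (8.93% of the variance) had an absolute r of 0.94 with the members' mean, and the first (63.6%) one of 0.98 with lymphocyte markers and 0.013 with the members.

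Lymphocyte markers were at both extremes among the libraries richest in muscle transcript. The study removed the lymph nodes when it prepared stromal vascular cells, and does not say whether it did so for the frozen fat. The summed level of these markers was 8.36 to 2491 CPM in ad-lib and 8.48 to 2886 CPM in TAN libraries. It was 12.8 and 8.36 CPM in the 2 libraries with the most muscle transcript, ad-lib 4 AM replicate 3 and ad-lib 12 PM replicate 3, the second being the lowest value of all 48. In the next 3 libraries by muscle transcript it was 1084, 2224 and 1828 CPM. White adipocyte markers summed to 23499 CPM in the highest muscle library, against a median of 18781 CPM over the 48. All 10 lymphocyte markers, and all 8 white adipocyte markers, were detected in every library. Of the 7 smooth muscle markers, Acta2, the vascular actin, had 378 to 5048 counts, and the list summed to 29.5 to 312 CPM. The 7 cardiac markers summed to at most 21.1 CPM, with Myl4 the highest, and heart-defining Myh6 and Nppa had at most 15 and 4 counts. Of the 7 keratinocyte markers, Krt15 and Flg were at 0 in every library, Krt5 and Krt14 had at most 7 and 2 counts, and the list summed to at most 7.44 CPM, most of it Krt10. Tendon and fascia markers summed to 0.346 to 38.1 CPM, and the tendon gene Tnmd had at most 15 counts. Schwann cell and nerve markers were at 165 to 1055 CPM, with the myelin gene Pmp22 in every library.

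**Figure D3:**
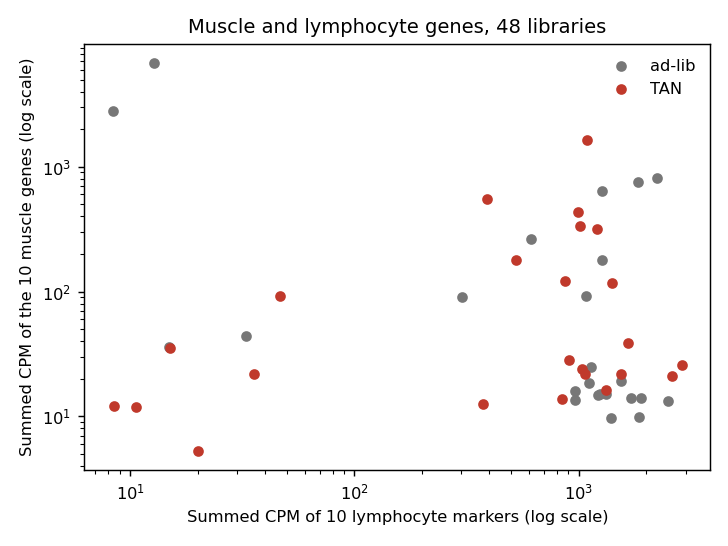
Summed CPM of the 10 muscle genes against summed CPM of 10 lymphocyte markers (both log axes), a point for each of the 48 libraries, coloured by diet. The 2 libraries highest in muscle genes lie at the far left, at 12.8 and 8.36 CPM of lymphocyte markers, and the next 8 at the right, between 390 and 2224 CPM.

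The balance between members differed among the 17 libraries with at least 100 Ckm counts. Myh4 had 0.202 to 3.46 counts per Ckm count, a 17.2-fold range, whereas Tnni2 had 0.691 to 1.58 and Atp2a1 0.649 to 1.69 per Ckm count, ranges of 2.29-fold and 2.61-fold. The low Myh4 ratios fell in libraries with few counts on long genes. The share of nuclear counts on genes longer than 5000 bases, the members left out, was 25.8% to 41.8% over the 48 libraries. The 4 of the 17 libraries with the lowest share, 26.9% to 29.4%, were TAN 8 PM replicates 3 and 4, TAN 12 AM replicate 3 and ad-lib 8 AM replicate 3, and they had 0.202 to 0.302 Myh4 counts per Ckm count. The other 13, at 33.4% to 41.8%, had 0.327 to 3.46. The same 4 libraries had 0.00531 to 0.0196 counts of Ttn, the longest muscle transcript, per Acta1 count, against 0.0494 to 0.589 in the other 13. The short transcripts did not share 1 direction. Tnni2 had 0.750 to 1.53 counts per Ckm count in the 4 (median 1.12) and 0.691 to 1.58 in the 13 (median 0.844), and Mylpf had medians of 1.63 and 0.883. Tnnt3, in contrast, had 0.413 to 0.845 per Ckm count in the 4 (median 0.569) and 0.683 to 2.29 in the 13 (median 0.968), and Casq1 had medians of 0.136 and 0.275. The part of gene length in these ratios was not tested. These ratios were looked at after the values were seen and carry no test. The Ckm and Myh4 gene models are 2913 and 6016 bases long, and those of Mylpf, Tnni2, Tnnt3 and Casq1 are 1062, 1497, 1583 and 1951 bases long.

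**Figure D4:**
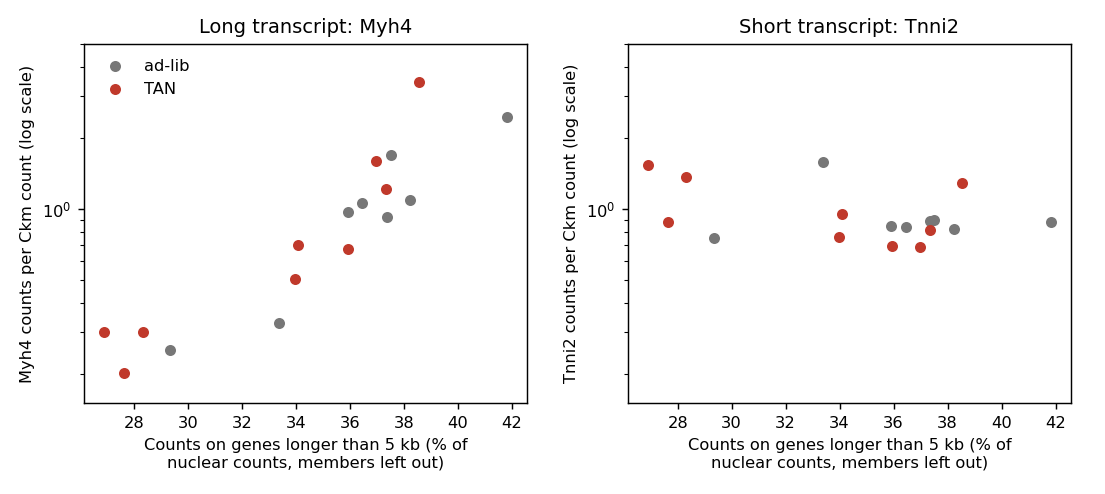
Counts of Myh4 (left) and Tnni2 (right) per count of Ckm, on log axes, against the percentage of nuclear counts on genes longer than 5 kb, in the 17 libraries with at least 100 Ckm counts. The Myh4 ratio lies at 0.202 to 0.302 in the 4 libraries on the left and up to 3.46 on the right, and the Tnni2 ratio spans 0.691 to 1.58.

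To determine whether the muscle genes followed the diet, TAN and ad-lib libraries were compared at each time with edgeR's quasi-likelihood test, fitted to all 12 groups and all 19977 genes. A gene was called at a Benjamini-Hochberg adjusted p below 0.05 and a log2 fold change beyond 1. None of the 10 members was called at 8 AM, 12 PM, 4 PM, 8 PM, 12 AM or 4 AM. The share of all genes called was 0.0150% at 8 AM, 0.0901% at 12 PM, 10.4% at 4 PM, 7.03% at 8 PM, 0.135% at 12 AM and 0% at 4 AM. At an unadjusted p below 0.05 and the same fold, 1 member passed at 8 PM (Myh1) and 4 at 4 AM (Acta1, Myh1, Tnni2 and Casq1), against 14.9% and 1.16% of all genes, and 0 at 8 AM, 12 PM, 4 PM and 12 AM, against 2.18%, 2.93%, 19.2% and 7.50%. limma voom called 0 members at every time, but its share over all genes is not given here, so this 0 has no background. DESeq2 called 2 members at 4 PM, Myh1 and Myh4, where it called 14.9% of all genes, and 1 at 8 PM, Myh1, where it called 9.49%. It called 0 members at 8 AM, 12 PM, 12 AM and 4 AM, against 0.200%, 0.230%, 1.51% and 0.0200% of all genes. At 4 PM, Myh4 had 20, 1, 6 and 7 counts in ad-lib and 0 in all 4 TAN libraries, and Myh1 at most 7 counts. Against a floor of 3 counts per library, Myh4 was at least 2.58-fold lower in TAN libraries, but only at least 1.12-fold lower without ad-lib replicate 1, and no fold can be given for Myh1. At 8 PM, Myh1 had 123, 0, 3 and 26 counts in ad-lib and 0 in all 4 TAN libraries, at least 10.1-fold lower, or at least 2.88-fold lower without ad-lib replicate 1.

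The CPM of the 4 TAN and 4 ad-lib libraries did not overlap for Acta1 at 8 AM and for Myh4 and Tnnt3 at 4 PM, each lower in TAN, as for 1.05% and 17.8% of all genes. They overlapped for all 10 at 12 PM, 8 PM, 12 AM and 4 AM, where 1.54%, 11.6%, 5.54% and 1.18% of all genes lay lower in TAN without overlap. Acta1 at 8 AM had 1089, 1348, 9563 and 536 counts in ad-lib and 588, 315, 319 and 525 in TAN libraries, which is 38.7 to 303 against 16.9 to 33.0 CPM. Its log2 fold change was -2.29 with an SE of 1.62 (edgeR, adjusted p = 0.85). Tnnt3 at 4 PM had 11, 9, 17 and 13 counts in ad-lib and 0, 0, 0 and 3 in TAN libraries.

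The median log2 fold change of the members was -2.54 at 8 AM, -0.40 at 12 PM, -2.32 at 4 PM, -1.95 at 8 PM, -0.66 at 12 AM and -3.83 at 4 AM, beside medians of -0.14 to 0.04 over all genes tested. With the genes that were at 0 in all 4 TAN libraries set at their bound, it was -0.98 at 4 PM and -1.43 at 8 PM. Single libraries set the sign at 12 PM, 12 AM and 4 AM, and changed the size but not the sign at 8 AM, 4 PM and 8 PM. Without ad-lib 4 AM replicate 3 the 4 AM median was 3.77, without ad-lib 12 PM replicate 3 the 12 PM median was 5.78, and without ad-lib 12 AM replicate 3 the 12 AM median was 1.60, so the sign turned at all 3 times. The 12 PM median was also positive with limma voom (3.11) and with the replicate block (3.40), and the 4 AM median was -0.12 with limma voom. At 8 AM it was -5.01 without TAN replicate 4 and -1.01 without ad-lib replicate 3, and at 8 PM -3.53 without TAN replicate 3 and -0.34 without ad-lib replicate 1. At 4 PM it lay between -3.37 and -1.95 when each library was left out in turn.

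Averaged over the 6 times, the TAN effect was negative for all 10 members, with log2 fold changes from -3.41 (Myh1) to -1.06 (Acta1) and a median of -2.01, against -0.08 over all genes. The 10 profiles rest on the same libraries and are not independent. None was called, whereas 1.97% of all genes were. The lowest adjusted p was 0.061 for Myh1 (log2 fold change -3.41, SE 1.10), followed by 0.10 for Casq1, 0.16 for Myh4 and 0.19 for Myh2, all from edgeR. At an unadjusted p below 0.05, 6 members passed (Myh1, Myh2, Myh4, Tnnt3, Atp2a1 and Casq1), against 6.72% of all genes, and DESeq2 called 2 (Myh1 and Myh4), against 2.58%. The fitted values of Myh1, Myh2 and Myh4 include times at which all TAN libraries were at 0, so they depend on the prior count and give no bound. Without ad-lib 4 AM replicate 3, the effect was -0.05 for Acta1, -0.26 for Ckm, -0.19 for Mylpf, -1.40 for Myh4 and -1.75 for Myh1. With 1 of the 48 libraries left out in turn, Myh1 was called 5 times (without ad-lib 8 AM replicate 4, TAN 8 AM replicate 4, ad-lib 12 PM replicate 1, TAN 12 PM replicate 1 or TAN 12 AM replicate 3), with the lowest adjusted p, 0.036, without TAN 12 PM replicate 1. The share of all genes called in these refits is not given here, so the 5 calls have no background. The share of counts on long genes had a median of 36.9% in ad-lib and 34.4% in TAN libraries, and its part in the lower values of the long myosins was not tested.

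**Figure D5:**
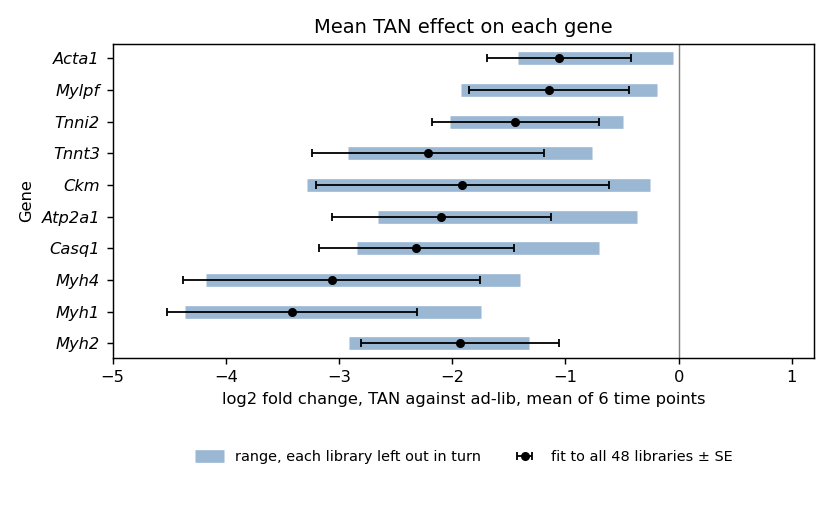
Mean TAN effect over the 6 times for each gene, as log2 fold change (points) with its standard error (black bars), and the range when each of the 48 libraries was left out in turn (blue bars). All points lie between -3.41 and -1.06, and the blue bars of Acta1, Mylpf and Ckm end at -0.05, -0.19 and -0.26.

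Variation over the day was tested with an F test over the 6 times within each diet. None of the 10 members passed within ad-lib libraries, where 0.0551% of all genes did, or within TAN libraries, where 23.0% did. At an unadjusted p below 0.05 there were 2 within ad-lib (Acta1 and Casq1, against 6.67% of genes) and 1 within TAN (Myh1, against 42.2%), and DESeq2 called none, against 0.621% of genes within ad-lib (where 1 member had no adjusted p) and 36.9% within TAN. The lowest adjusted p within TAN was 0.082, for Myh1. Without ad-lib 4 AM replicate 3, which is not among the libraries that this test compares, it was 0.049. The filter, scaling, spread and adjustment were all made anew in that fit, and its share of all genes passing is not given here. No member passed the test of whether the TAN effect differed between times (edgeR, lowest adjusted p = 0.31), with 8.98% of all genes passing. At an unadjusted p below 0.05 there were 0 members against 30.2% of genes, and by DESeq2 0 against 20.2%. With the replicate number as a block, 5 members (Ckm, Mylpf, Myh1, Tnnt3 and Tnni2) passed over time within TAN, against 20.6% of genes, and 0 in the other 9 comparisons, where the block gave 0.0100% of genes at 8 AM, 0.0951% at 12 PM, 9.69% at 4 PM, 6.56% at 8 PM, 0.130% at 12 AM, 0% at 4 AM, 1.60% for the mean effect, 0.0501% over time within ad-lib and 6.84% for the difference between times. Whether the numbers pair the samples was not settled.

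Of the other muscle lists, 1 of 16 genes of all striated fibres was called for the mean effect, Ttn, the elastic filament of the sarcomere, which was lower in TAN libraries (log2 fold change -2.53, SE 0.55, edgeR adjusted p = 0.0057), against 1.97% of all genes called, and also lower at 4 PM (adjusted p = 0.047), where 10.4% of all genes were called. Ttn is among the long transcripts that were scarce relative to Acta1 in libraries with a low share of counts on long genes, and the part of that share here was not tested. The list's 16 fold changes were all negative, with a median of -1.31. Of 8 slow-fibre genes tested, Mybpc1 was called lower (log2 fold change -2.85, adjusted p = 0.034), and the list's median was 0.08. Of 6 fast sarcomere genes, 12 coupling genes and 10 muscle energy genes, none was called for the mean effect, with medians of -1.60, -1.80 and -1.39. At 8 PM, Stac3, which links the calcium channels of the triad, and Phka1, a subunit of phosphorylase kinase, were called lower in TAN libraries (adjusted p = 0.043 and 0.042), and Mef2c was called lower at 4 PM and 8 PM (adjusted p = 0.0092 and 0.013). Of all genes, 7.03% were called at 8 PM, against 1 of 12 coupling genes and 1 of 10 muscle energy genes. Fabp3, a fatty acid carrier of oxidative muscle, Ttn and Mef2c varied over time within TAN (adjusted p = 0.047, 0.036 and 0.010), which is 1 of 10 energy, 1 of 16 striated and 1 of 4 myogenic genes tested, against 23.0% of all genes. For the mean effect, Cidea and Elovl3, genes of thermogenic fat, were called higher among 8 brown and beige markers tested, and none was called among 4 myogenic, 7 smooth muscle, 4 cardiac, 8 white adipocyte, 1 keratinocyte, 10 lymphocyte, 5 Schwann cell and 4 tendon genes. No embryonic or perinatal myosin passed the filter. At 4 PM, the time at which the 10 members were low in both diets, the T cell gene Cd4 was among the lymphocyte markers called lower in TAN libraries (edgeR adjusted p = 0.032), and all 10 lymphocyte markers had negative log2 fold changes with a median of -3.43. Also at 4 PM, Retn and Fabp4 of the white adipocyte list and Cidea, Elovl3 and Cox7a1 of the brown and beige list were called higher, and Fmod of the tendon list lower. At 8 PM, Ppargc1a, a coactivator of mitochondrial genes, was called lower. The part of these cell types in the values of the muscle genes was not tested.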

How the data were processed

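Bulk RNA-seq of iWAT was available for 48 samples, with diet, time and replicate number read from the labels and from column names that match them, and 0 value columns lacked a sample. Libraries were poly-A selected and randomly primed, and the authors deposited raw, unnormalized counts per gene. The authors also deposited FPKM values averaged over the 4 libraries of a group, which were not tested here. The submitters' processing notes name TopHat 1.3.3, DESeq2 1.20.0, limma and edgeR, and the builds mm9, mm10 and GRCm38. The strandedness and the annotation are not given in the sources used here. The table's start and end equal those of GENCODE M21 on GRCm38 for 98.1% of genes and all 10 members.

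Here, genes were filtered with filterByExpr (minimum count 10), scaled with TMM and fitted with edgeR 4.0.16 (quasi-likelihood, 12 groups, R 4.3.3), and p-values were adjusted over all genes tested. limma 3.58.1 and DESeq2 1.42.0 were alternatives, and the steps were tested on simulated data. The CPM of a library divided its counts by the TMM-scaled total. Each library had between 15636378 and 29913310 counts, and a count of 0 allows up to 3 counts, for counting error only. The named genes were all 10 members, of each marker list the 5 genes of highest mean level per length and any gene called, and the 10 genes whose log2 CPM (prior count 2) was most like the members' mean; others are named for what they mark, after their values were seen. The members and lists were chosen with earlier results of these data known. Some genes of the marker lists are not reported here.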

Additional observations from a re-analysis of the deposited data

Results flagged for a closer look

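In 5 of 12 groups, the highest library of the summed level of the 10 genes lay further from the other 3 than Dixon's 95% limit allows. These were ad-lib 4 AM replicate 3 (6735 CPM), ad-lib 12 PM replicate 3 (2790 CPM), ad-lib 12 AM replicate 3 (644 CPM), TAN 12 AM replicate 3 (548 CPM) and ad-lib 4 PM replicate 1 (24.9 CPM). Chance flags about 1 group in 20 where values are normally distributed. The CPM values were not log-transformed and are skewed, and those of single genes include zeros, so that rate need not hold here. The value of ad-lib 4 PM replicate 1 is a small difference within a low group. Gene by gene, the same limit was passed in 10 of 12 groups for Ckm, 8 of 10 for Myh2 and 7 of 12 for Mylpf, in each case by the highest library, and Casq1 had 4 of 12, of which 3 were at the high end.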

How the results depend on the processing

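The count of called members was 0 in all 10 comparisons, and under other settings it stayed 0 in 328 cases and did not in 15. DESeq2 raised the count to 2 at 4 PM, 1 at 8 PM and 2 for the mean effect, the unadjusted p to 1 at 8 PM, 4 at 4 AM, 6 for the mean effect, 2 over time within ad-lib and 1 over time within TAN, and leaving out 1 library in turn gave 0 to 1 for the mean effect and 0 to 1 over time within TAN. With limma voom, RLE factors, no filter, a separate fit of each time, mitochondrially encoded genes left out, or any fold change, the count was 0 wherever it could be made. For these settings, and for the fits with 1 library left out, the share of all genes called is not given here. At least 10 counts in every library left 1 member, Acta1, which was not called. Leaving out both TAN 8 PM libraries that stood apart on the third component, chosen after seeing the data, also gave 0. Same-numbered TAN and ad-lib libraries deviated together (r above 0.1 over 5000 genes) in 10 of 24 pairs (median -0.013, range -0.59 to 0.84). Only libraries of the same time were compared, and the first component (63.6% of the variance) followed lymphocyte markers. Whether the numbers pair the samples is therefore not settled. With a replicate block, 5 members (Ckm, Mylpf, Myh1, Tnnt3 and Tnni2) varied over time within TAN, where it called 20.6% of all genes, and 0 were called in the other 9 comparisons. The median at 12 PM was 3.11 with limma voom and 3.40 with the block, against -0.40, and at 4 AM -0.12 with limma voom, against -3.83; the cause was not tested. Low counts of Myh1, Myh2 and Casq1 limit what can be said of them. The same holds for Ckm and Myh4, which were at 0 in 19 and 17 of the 48 libraries.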
